A study of Mus musculus with 6 samples.

Results

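Muscle breaks down the branched-chain amino acids leucine, isoleucine and valine in its mitochondria, and 10 genes of that route were examined in mouse quadriceps: Bcat2, Bckdha, Bckdhb, Dbt, Bckdk, Ivd, Mccc1, Mccc2, Hibadh and Hibch. They were a given list of enzymes and of 1 regulatory kinase, taken by gene symbol together with all 16 probes that carry those symbols, out of 17711 genes with a named probe on the array. A probe was kept when its signal was detected (detection p-value under 0.05) on at least 3 of the 6 arrays. This left 12 member probes for 9 of the genes, among 14420 kept probes. The other 4 member probes, which include the only probe of Hibch, were not detected on any array.

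The first step of the route moves the amino group to 2-oxoglutarate and leaves a branched-chain keto acid. The branched-chain keto acid dehydrogenase complex then removes the carboxyl group in the step that commits the carbon to breakdown. A kinase shuts the complex off by phosphorylation and a phosphatase switches it on again. Leucine, isoleucine and valine then follow separate branches towards acetyl-CoA, acetoacetate and propionyl-CoA. In muscle the transaminase is abundant, and much of the keto acid formed there is released to other organs.

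Total RNA of quadriceps femoris from C57BL/6 mice was hybridised to a bead array. The 3 arrays of the wild-type group carried RNA of mice without the transgene. The 3 arrays of the RORalpha1delDE group carried RNA of mice with a truncated human RORalpha1, a nuclear receptor, that lacks the E region and part of the hinge, driven by the human skeletal alpha-actin promoter and so meant for skeletal muscle fibres. Both groups were fasted overnight, killed at 9 in the morning, kept on a 12 h light cycle and fed a diet with 4.6% fat. No source used here gives age, sex, the number of transgenic founder lines or whether each array was a separate mouse. The p-values measure only the spread between these samples, which may be technical.

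All 7 skeletal muscle markers were kept, with a median log2 intensity of 15.07 to 15.33 over the samples. Of the 4 hepatocyte markers Alb and Serpina1a were not detected on any array, 1 was detected on 2 wild-type arrays alone and Apoa1 was detected throughout (9.07 to 9.31 over the samples). From 13979 to 14887 probes were detected per array. The arrays lay on 1 chip with the wild type at the first positions and the transgenic arrays at the last, so position and genotype cannot be told apart. Of 5236 bright probes, 0 lay over 2-fold apart between arrays 1 and 2 of a group, and 55 to 101 did between array 3 and either of them. Their remaining differences were almost unrelated between probes of the same gene (r across 525 genes 0.0341 in the wild type and 0.0316 in the transgenic group, against 0.703 to 0.764 for array 3 against either of them). Arrays 1 and 2 of a group were therefore averaged and counted as 1 sample, which gives 2 samples against 2. One transgenic sample, array 3, stood apart from all others in slow-fibre genes, as described with the member values of that array. The mouse Rora probe read 12.19, 12.11 and 12.03 in the wild type and 11.95, 12.12 and 12.54 in the transgenic arrays, and it does not check the human transgene.

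RORalpha binds DNA as a monomer at the half-site AGGTCA, preferably with an A/T-rich stretch before it, so the promoters of the genes were read for that motif. RefSeq promoters of GRCm38.p6, from 250 bases before to 50 bases after the annotated start, were at hand for 9 of the member genes (11 promoters), all but Dbt. AGGTCA, searched on both strands, stood in 2 of those 11, against 16.3% of all 32851 promoters in the table. The half-site directly preceded by AANT, an A/T-rich form that is part of the shorter motif's matches, stood in 0 of the 11 and in 0.219% of all. The 2 member promoters with the half-site are printed because they are the ones of those 11 where the letters of the receptor's motif occur. Ppm1k is added because it had the smallest unadjusted p-value among the regulators. Its promoter carries the motif too, not directly preceded by AANT. As the gene was picked by its value in these data, the match is no evidence of a link between motif and difference. Promoters of the remaining pathway genes were not read. All are written 5′ to 3′ on the gene's strand, with AGGTCA in capitals. The motif begins 119 bases before the start in Bckdhb (chr9:83924887-83925186, plus strand), at base 20 after the start in Hibadh (chr6:52640251-52640550, minus strand) and 124 bases before the start in Ppm1k (chr6:57535438-57535737, minus strand).
Bckdhb: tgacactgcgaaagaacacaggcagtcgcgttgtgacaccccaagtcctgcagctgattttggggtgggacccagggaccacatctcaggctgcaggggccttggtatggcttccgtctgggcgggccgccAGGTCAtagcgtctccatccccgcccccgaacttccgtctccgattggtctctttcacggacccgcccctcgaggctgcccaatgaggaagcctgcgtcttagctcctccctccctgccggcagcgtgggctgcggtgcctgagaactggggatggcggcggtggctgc
Hibadh: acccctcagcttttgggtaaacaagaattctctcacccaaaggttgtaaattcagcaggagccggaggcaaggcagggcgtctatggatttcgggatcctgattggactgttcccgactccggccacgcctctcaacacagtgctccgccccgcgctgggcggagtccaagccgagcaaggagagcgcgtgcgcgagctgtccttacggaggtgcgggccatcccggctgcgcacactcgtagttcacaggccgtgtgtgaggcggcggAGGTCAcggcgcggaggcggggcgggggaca
Ppm1k: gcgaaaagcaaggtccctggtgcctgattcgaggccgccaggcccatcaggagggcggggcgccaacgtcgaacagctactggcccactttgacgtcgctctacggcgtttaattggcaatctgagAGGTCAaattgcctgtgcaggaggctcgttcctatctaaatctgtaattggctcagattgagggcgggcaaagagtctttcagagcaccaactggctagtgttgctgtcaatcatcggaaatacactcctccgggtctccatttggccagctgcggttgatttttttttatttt
These matches describe the letters of the windows and say nothing of binding.

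The comparison of transgenic with wild-type muscle asks how the truncated receptor affects the muscle's RNA. Of the 12 kept member probes, 0 passed the test in either direction (limma, Benjamini-Hochberg adjusted over 14420 probes, threshold 0.05), where 0.00693% of all probes did, namely the single Ucp1 probe. Adjusted p-values of the member probes ran from 0.647 to 0.987. An unadjusted p-value under 0.05 was reached by 1 member probe, of Dbt, and by 7.64% of all probes. When the 6 arrays were entered as separate samples, 0 member probes and 0.374% of all probes passed, and the lowest adjusted p-value of a member was 0.184. The median difference over the 9 measured genes, 1 probe a gene, was -0.06 on the log2 scale with 4 genes above 0 and 5 below, beside a median of 0.02 over all kept probes. Without transgenic array 3 that median was 0.06, without wild-type arrays 1 and 2 it was 0.03, and without wild-type array 3 it was -0.13.

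The 2 samples of one group lay wholly above or below those of the other for 6 of the 12 member probes, 4 higher and 2 lower in the transgenic group. Over all probes the share was 39.6%, made of 21.6% higher and 18.1% lower. Over the 6 single arrays the groups did not overlap for 3 member probes, those of Dbt, Bckdk and Mccc2, against 21.8% of all probes. The smallest p-value that exact permutation of a single value allows is 0.33 with 2 samples a group and 0.1 with 3 arrays a group. The values below are normalised log2 intensities. Differences are transgenic minus wild type on the same scale, and each ± is the SD over 2 samples (n = 2).

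**Figure D1:**
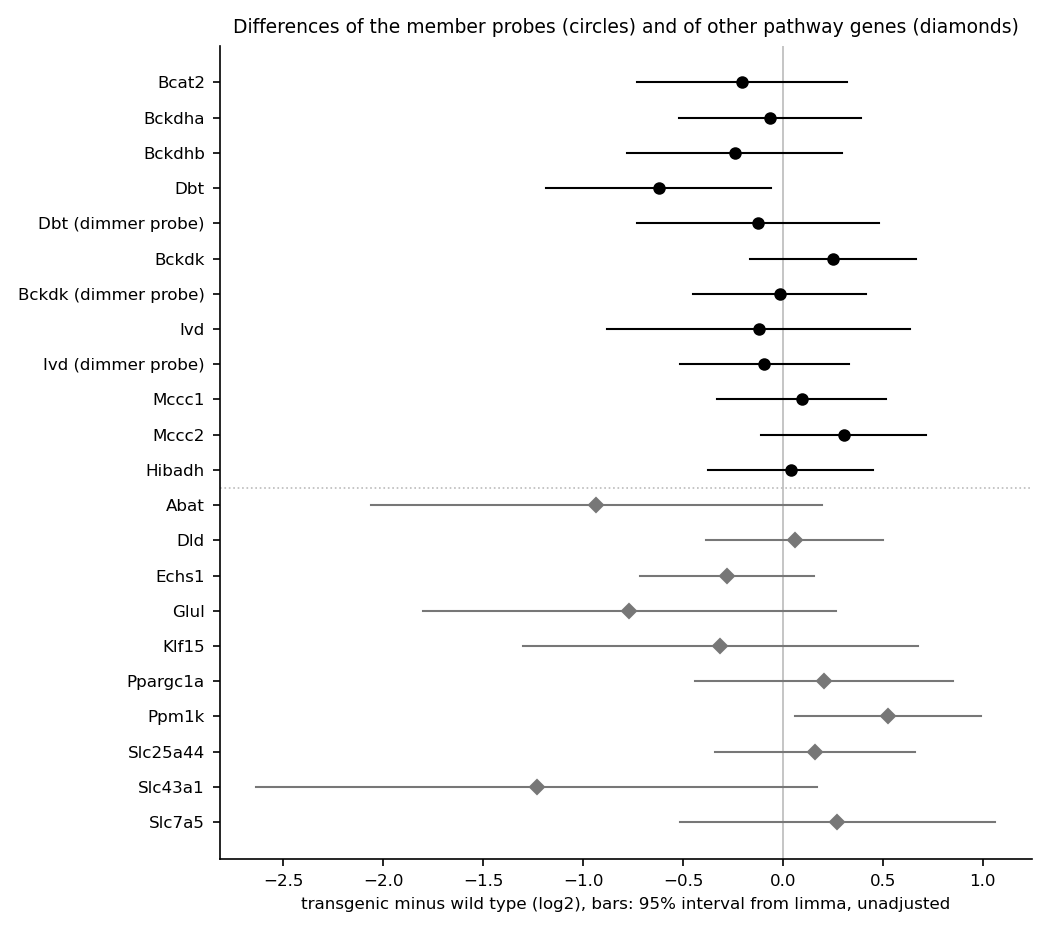
Differences between transgenic and wild-type muscle (log2, x axis) for the 12 kept member probes (circles) and the other named genes of the pathway (diamonds), with 95% limma intervals not adjusted for multiple testing. The intervals of Dbt (-1.19 to -0.06) and Ppm1k (0.06 to 0.99) stop short of 0, and the adjusted p-value of each is 0.647.

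Bcat2, the mitochondrial transaminase that starts the route in muscle, read 9.77, 10.11 and 10.07 on the wild-type arrays and 10.13, 9.92 and 9.58 on the transgenic arrays. Its groups overlapped, at 10.01 ± 0.09 and 9.80 ± 0.31. The difference was -0.21 (SE 0.22, 95% interval -0.73 to 0.32, adjusted p = 0.823), and it was 0.02 without transgenic array 3 and -0.43 without transgenic arrays 1 and 2.

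The keto acid dehydrogenase complex is built from a decarboxylase (E1, with subunits Bckdha and Bckdhb), the transacylase core (E2, Dbt) and the dihydrolipoamide dehydrogenase Dld (E3), which is shared with the pyruvate and 2-oxoglutarate complexes. Bckdha read 12.30, 12.35 and 12.19 in the wild type and 12.33, 12.29 and 12.07 in the transgenic arrays. The groups overlapped, and the difference was -0.06 (SE 0.19, interval -0.52 to 0.39, adjusted p = 0.947). It was 0.05 without transgenic array 3 and 0.00 without wild-type arrays 1 and 2. Bckdhb read 11.45, 11.30 and 11.27 against 11.26, 11.38 and 10.84. Its wild-type mean was 11.32 ± 0.08 and its transgenic mean 11.08 ± 0.34, a difference of -0.24 (SE 0.22, interval -0.78 to 0.30, adjusted p = 0.795). That difference was -0.0024 without transgenic array 3 and -0.48 without transgenic arrays 1 and 2. For both E1 subunits the lowest of the 6 readings was transgenic array 3.

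Dbt, the transacylase core that holds the complex together, was the member with the largest difference. Its brighter probe read 11.79, 11.98 and 11.49 on the wild-type arrays and 11.29, 11.23 and 10.88 on the transgenic arrays. All 3 transgenic readings lay below all 3 wild-type readings, and array 3 was the lowest within each group. The means were 11.69 ± 0.28 and 11.07 ± 0.27, and the difference of -0.62 (SE 0.23, interval -1.19 to -0.06) corresponds to a transgenic to wild-type ratio of 0.650 (0.439 to 0.961). The unadjusted p-value was 0.0358 and the adjusted one 0.647, so the difference did not pass the test. Before normalisation the deposited signals were 4138.7, 4509.7 and 2866.3 in the wild type and 2565.5, 2449.0 and 1818.1 in the transgenic group. The difference was -0.43 without transgenic array 3 and -0.82 without wild-type array 3.

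A dimmer Dbt probe, detected on all 3 wild-type and 2 transgenic arrays, did not show the same separation. It read 6.57, 6.10 and 6.08 against 6.19, 6.54 and 5.79. Its signals before normalisation, 180.5 to 256, were near background, where the array medians were 154.5 to 174.9. It is therefore a weak check of the brighter probe. Its groups overlapped and its difference was -0.12 (SE 0.25, interval -0.73 to 0.48, adjusted p = 0.917). With both probes averaged, the Dbt difference was -0.37. Another Dbt probe was not detected on any array. The E3 subunit Dld stood at 12.49 ± 0.16 in the wild type and 12.55 ± 0.01 in the transgenic group, a difference of 0.06 (SE 0.18, adjusted p = 0.951) that was -0.05 without wild-type arrays 1 and 2.

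**Figure D2:**
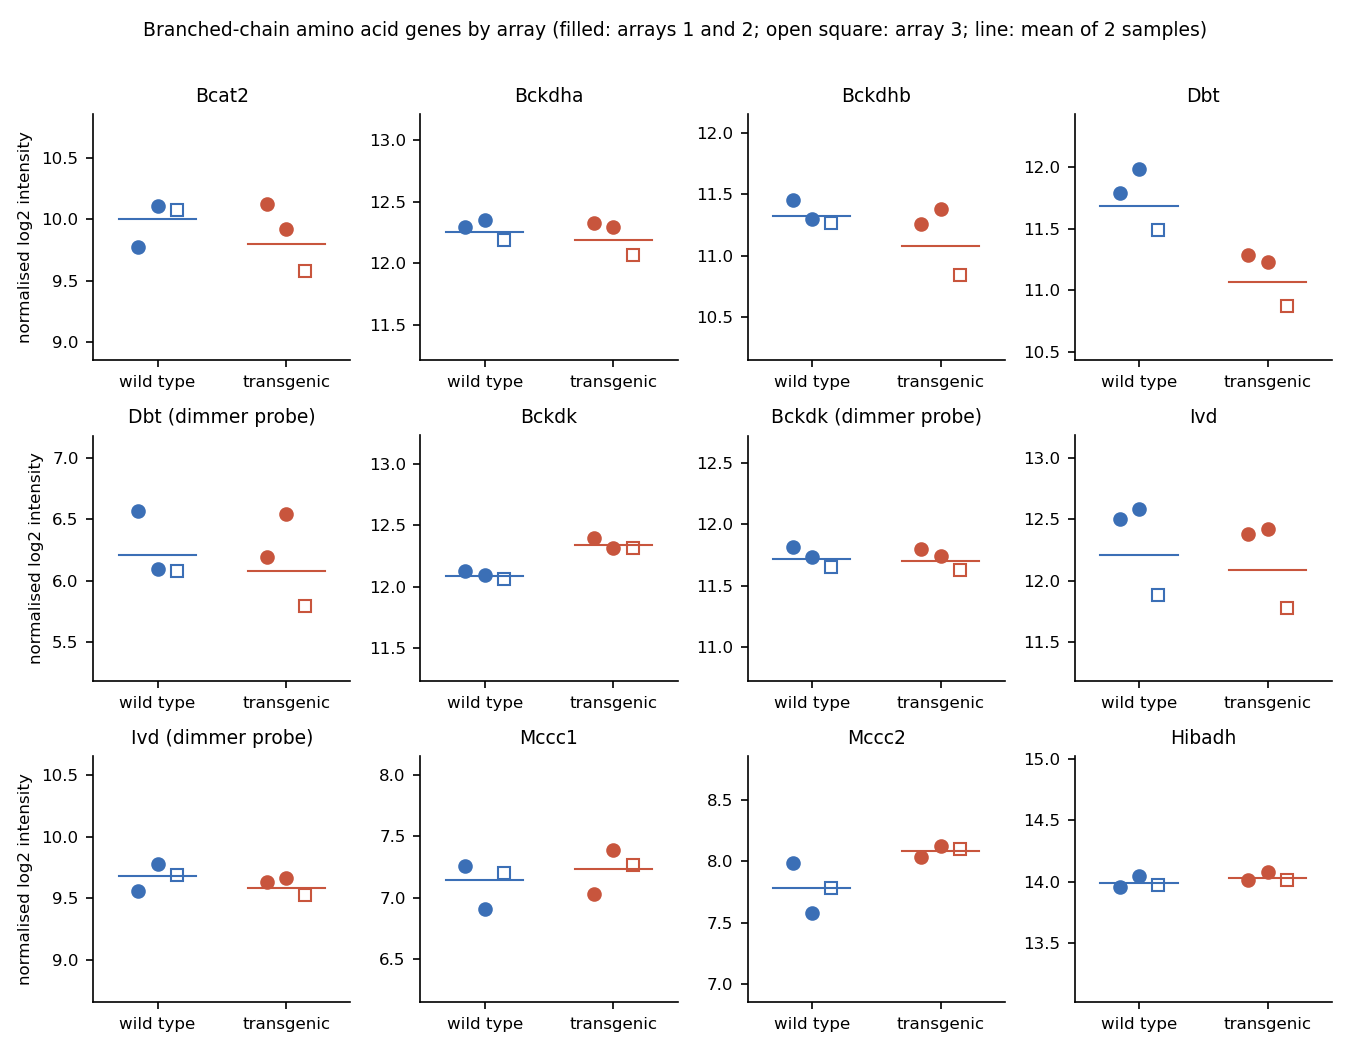
Normalised log2 intensity (y axis, each panel spanning the same number of log2 units) of every kept member probe on each array, with wild type on the left and transgenic on the right of each panel. Filled circles are arrays 1 and 2, open squares array 3 and lines the mean of the 2 samples. All transgenic points lie below all wild-type points for the brighter Dbt probe and above them for the brighter Bckdk probe and for Mccc2.

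Bckdk is the kinase that inactivates the complex. Its brighter probe read 12.13, 12.09 and 12.06 in the wild type and 12.40, 12.31 and 12.32 in the transgenic group, with no overlap and an SD of 0.03 in each group. The difference of 0.25 (SE 0.17, interval -0.16 to 0.67, adjusted p = 0.740) is a ratio of 1.19 (0.892 to 1.59). The SE exceeds what these SDs alone would give because limma draws each probe's spread towards that of all probes. Before normalisation the signals of this probe overlapped, at 5224.9, 4857.2 and 4202.2 against 5474.5, 5135.1 and 4743.7. The second Bckdk probe, annotated to the same RefSeq transcript, read 11.82, 11.73 and 11.65 against 11.79, 11.74 and 11.62. Its groups overlapped, and its difference was -0.02 (SE 0.18, interval -0.45 to 0.42, adjusted p = 0.987), so the probes of the kinase did not show 1 common shift.

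Ppm1k, the mitochondrial phosphatase that reactivates the complex, had the largest positive difference among the other genes of the pathway. It read 6.26, 6.36 and 6.56 in the wild type and 6.95, 7.16 and 6.87 in the transgenic group, and these normalised ranges did not overlap. The means were 6.43 ± 0.17 and 6.96 ± 0.13, a difference of 0.53 (SE 0.19, interval 0.06 to 0.99) or a ratio of 1.44. The unadjusted p-value was 0.0329 and the adjusted one 0.647, and the difference was 0.21 with no background correction. Before normalisation the signals of this probe overlapped, at 235.3, 237.7 and 235.8 against 264.3, 276.9 and 236.8. They are low values, where the array medians were 154.5 to 174.9. A dimmer Ppm1k probe read 6.46, 6.11 and 5.90 against 6.66, 5.53 and 5.97 and gave a difference of -0.06 (adjusted p = 0.953). For Dbt, Bckdk and Ppm1k, then, 1 probe separated the arrays by genotype and another kept probe of the gene did not. The other Bckdk probe was bright, at signals of 3023 to 4202.3. Those of Dbt and Ppm1k, at 180.5 to 256 and 179.6 to 248, were near background and can hardly test a shift.

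Among the carriers, Slc25a44, which imports branched-chain amino acids into mitochondria, stood at 9.08 ± 0.25 and 9.25 ± 0.13 (difference 0.16, SE 0.21, adjusted p = 0.856). That difference was -0.02 without wild-type array 3. Slc7a5, the light chain of the plasma membrane exchanger LAT1, differed by 0.27 (SE 0.32, adjusted p = 0.845) and by -0.16 without wild-type array 3, while its partner Slc3a2 was not kept. Slc43a1, a facilitative transporter of large neutral amino acids, had the most negative difference of the pathway, -1.23 (SE 0.57, interval -2.64 to 0.17, adjusted p = 0.662). It read 11.30, 11.54 and 9.51 in the wild type and 9.27, 9.12 and 9.27 in the transgenic group. Wild-type array 3 thus lay near the transgenic arrays. The difference was -2.18 without wild-type array 3 and -0.28 without wild-type arrays 1 and 2. A second Slc43a1 probe had the same order, at 10.64, 10.60 and 8.58 against 8.33, 8.30 and 8.35 (difference -1.27, adjusted p = 0.675).

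The transcriptional regulators named for the route did not pass the test either. Klf15, a glucocorticoid-induced factor known to drive branched-chain amino acid breakdown in muscle, stood at 10.15 in wild-type arrays 1 and 2, 9.00 in wild-type array 3, 9.55 in transgenic arrays 1 and 2 and 8.98 in transgenic array 3. Its difference was -0.31 (SE 0.41, adjusted p = 0.859) and was 0.26 without wild-type arrays 1 and 2, -0.89 without wild-type array 3 and -0.03 without transgenic array 3. Ppargc1a, a coactivator of mitochondrial genes, read 8.22, 8.27 and 8.88 against 8.84, 9.01 and 8.61, a difference of 0.21 (SE 0.26, adjusted p = 0.857) that was -0.11 without wild-type arrays 1 and 2, 0.52 without wild-type array 3 and 0.36 without transgenic array 3.

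In the leucine branch, Ivd oxidises isovaleryl-CoA, and Mccc1 and Mccc2 are the biotin-carrying and the carboxyltransferase subunits of the next enzyme, methylcrotonyl-CoA carboxylase. The brighter Ivd probe read 12.50, 12.58 and 11.88 in the wild type and 12.38, 12.42 and 11.78 in the transgenic group. Array 3 was the low one in both groups, and the SDs were 0.47 and 0.44. Against that spread the difference was -0.12 (SE 0.31, interval -0.88 to 0.64, adjusted p = 0.942), and it was 0.19 without transgenic array 3 and 0.21 without wild-type arrays 1 and 2. A dimmer probe annotated to the same Ivd transcript read 9.56, 9.78 and 9.69 against 9.63, 9.66 and 9.52, with no low array 3 in the wild type. Its difference was -0.09 (SE 0.17, adjusted p = 0.910).

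Mccc1 read 7.26, 6.91 and 7.20 in the wild type and 7.03, 7.39 and 7.27 in the transgenic group. The single arrays overlapped, and the difference was 0.09 (SE 0.17, interval -0.33 to 0.52, adjusted p = 0.911). Leaving out single arrays moved it between 0.0030, without transgenic array 2, and 0.18, without transgenic array 1, and it was 0.0059 without wild-type array 2. Mccc2 read 7.98, 7.58 and 7.79 against 8.04, 8.12 and 8.10, with every transgenic array above every wild-type array. Its difference of 0.30 (SE 0.17, interval -0.11 to 0.72, adjusted p = 0.708) is a ratio of 1.23 (0.927 to 1.64), and it was 0.18 with no background correction and 0.17 on the deposited log2 values. Before normalisation the Mccc2 signals overlapped, at 441.6, 361.1 and 351.6 against 398.3, 404.6 and 377.5. The small SDs of the averaged samples, 0.00 and 0.01, hide a wider spread between wild-type arrays 1 and 2, which were counted as 1 sample. Over all kept member probes, arrays 1 and 2 of a group lay up to 0.47 apart in the wild type and up to 0.36 apart in the transgenic group.

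In the valine branch, Hibch frees 3-hydroxyisobutyrate from its CoA ester and Hibadh oxidises it to methylmalonate semialdehyde. Hibadh was the most even member of the list. It read 13.96, 14.05 and 13.98 in the wild type and 14.02, 14.08 and 14.01 in the transgenic group, for a difference of 0.04 (SE 0.17, interval -0.38 to 0.45, adjusted p = 0.966). That difference was -0.05 when arrays were centred on their medians and not quantile normalised, a scaling that put the median of all probes at -0.06. The Hibch probe lay between 4.65 and 4.93 and was not detected on any array, so it gives no level for the hydrolase.

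Array 3 was compared with arrays 1 and 2 of its own group. Of the 9 measured members, each by its brightest probe, 6 were lower in array 3 of both groups: Bckdha, Bckdhb, Bckdk, Dbt, Ivd and Hibadh. Among all kept probes, dimmer probes of the same gene included, 25.1% were. The step was -0.66 in the wild type and -0.62 in the transgenic group for Ivd, and -0.39 and -0.38 for Dbt. For Bckdhb it was -0.11 and -0.48, and for Bckdk and Hibadh it was at most 0.05 in size. Bcat2 was higher in wild-type array 3 by 0.13 and lower in transgenic array 3 (-0.44). The members' median step was -0.05 in the wild type and -0.24 in the transgenic group, beside 0.02 and 0.01 over all probes. In the 28 other kept genes of the pathway, described below, the median step was similar, at -0.04 and -0.19. Array 3 carries 1 sample of each group, so these steps are values with no test.

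Other gene groups also differed between the 2 samples of a group. In transgenic array 3 the slow-fibre markers were far below the other samples: the median of the 8 kept genes, of 8 on the array, was 8.63 there and 13.38, 13.20 and 13.91 in wild-type arrays 1 and 2, wild-type array 3 and transgenic arrays 1 and 2. Their summed linear level was 6884 there and 73581 to 114895 in the other samples. Tnni1, the slow troponin I, read 5.40 in that sample and 10.68 to 11.01 in the others, while fast-fibre medians stayed between 15.38 and 15.52. The list of 16 fasting and glucocorticoid genes also stepped between samples. Its median difference of wild-type array 3 from wild-type arrays 1 and 2 was -1.13, with 0 of 16 genes higher in array 3. In the transgenic group that step was -0.16, with 6 of 16 genes higher in array 3. The list's median level was highest in wild-type arrays 1 and 2, at 11.48. It was 9.01 in wild-type array 3, 9.66 in transgenic arrays 1 and 2 and 9.27 in transgenic array 3. In the comparison of genotypes the list's median difference was -0.55 with 15 of 16 genes below 0 and 0 called. For the ubiquitin ligase Trim63 the samples in the same order read 13.94, 11.94, 11.77 and 12.19.

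Markers of other cells also differed between samples. Of the adipocyte markers 3 of 7 on the array were kept, and their summed level was 3611 and 5376 in the wild-type samples and 1103 and 3449 in the transgenic samples. Fabp4, Lep and Retn were not detected on any array. Of the 7 brown adipocyte markers on the array 5 were kept, with differences from -7.34 to 0.21, 2 above 0 and 3 below. Among them Ucp1 alone was called, lower in the transgenic group (limma, 2 samples against 2, adjusted p = 0.00103). The 5 kept macrophage markers summed to 736 and 585 in the wild type and to 656 and 1396 in the transgenic group. Whether fibre type, fasting state or other cells had a part in the member values was not tested. In these bulk samples fewer cells of a type and less RNA per cell cannot be told apart.

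**Figure D3:**
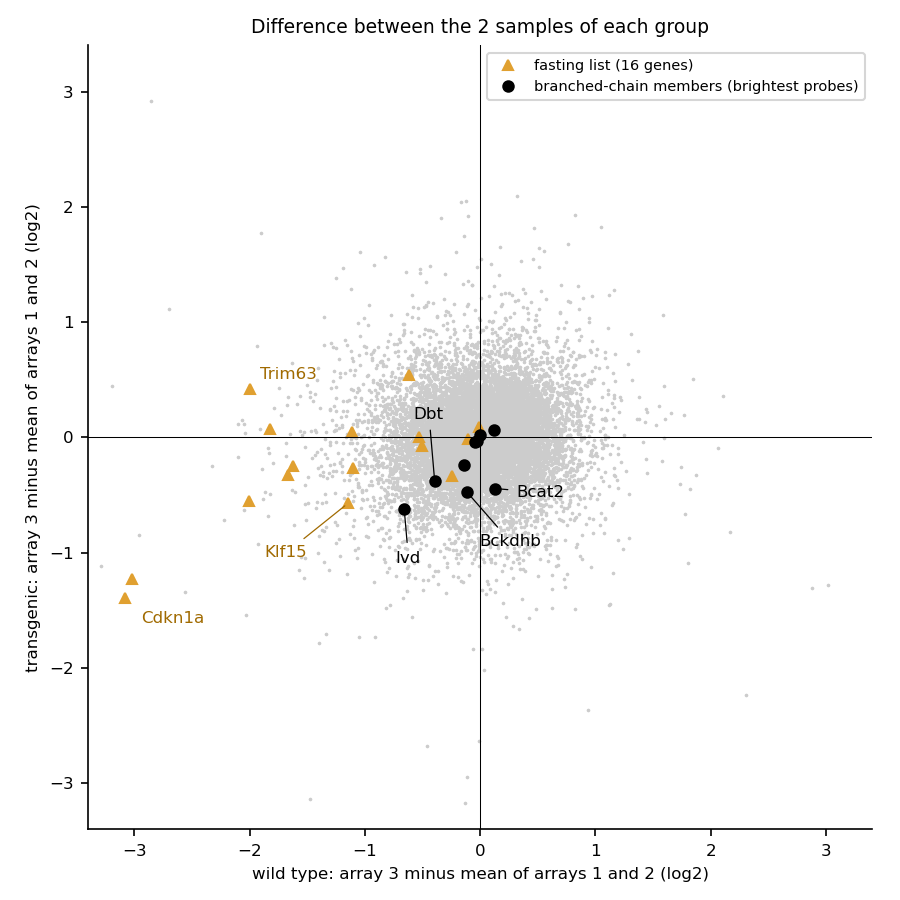
Array 3 minus the mean of arrays 1 and 2 (log2) in the wild type (x axis) and in the transgenic group (y axis). Shown are all kept probes, the members and the fasting list, each listed gene by its brightest probe. Both axes are limited to 3.4 in either direction, and 9 probes lie beyond them. Of the 9 members, 6 lie below 0 on both axes.

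The route was widened with 35 further genes, its other enzymes, regulators, carriers and nitrogen-handling neighbours, of which 33 had a probe and 28 were kept. Of these 28 genes, 0 passed the test in either direction by limma, 13 were above 0 and 15 below, and the median was -0.05. Adjusted p-values ran from 0.647 to 0.972. By brightest probe, an unadjusted p-value under 0.05 was reached by 1 gene, Ppm1k. Of the 40 kept probes of the list 2 reached it, the other being a dimmer probe of Got2, against 7.64% of all probes. That Got2 probe differed by -0.55 (SE 0.20, limma adjusted p = 0.647) and the brighter one by -0.23 (SE 0.19, adjusted p = 0.782). On both, every transgenic array was below every wild-type array.

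Glul, the glutamine synthetase that takes up nitrogen from transamination, read 9.34, 9.37 and 8.52 in the wild type and 8.67, 8.72 and 7.64 in the transgenic group. Array 3 was the low one in each group, and the difference was -0.77 (SE 0.42, adjusted p = 0.707). It was -0.24 without transgenic array 3 and -1.19 without wild-type array 3. Abat, the GABA transaminase, which is listed with the valine route in pathway collections, was detected on 2 wild-type arrays and 1 transgenic array and differed by -0.93 (SE 0.46, adjusted p = 0.684). That value, near background, was -0.41 without transgenic array 3 and -1.47 without wild-type array 3, -0.41 with no background correction and -0.44 on the deposited log2 values. Echs1, the short-chain enoyl-CoA hydratase of the valine and isoleucine branches, read 11.19, 11.26 and 11.28 against 11.05, 11.08 and 10.88. Every transgenic array was below every wild-type array, the difference was -0.28 (SE 0.18, adjusted p = 0.731), and a second Echs1 probe had the same order with a difference of -0.48 (SE 0.20, adjusted p = 0.647).

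**Figure D4:**
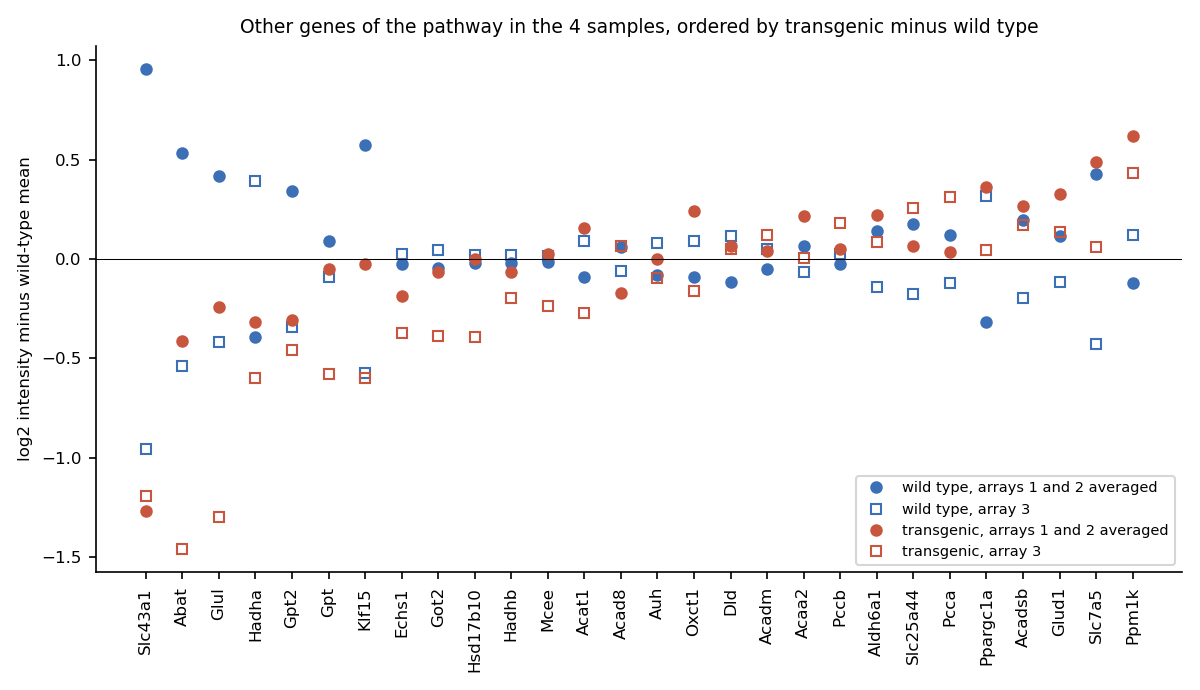
Log2 intensity minus the wild-type mean (y axis) of the 28 other kept genes of the pathway in the 4 samples, ordered along the x axis by the difference between genotypes. Slc43a1 is at the low end (-1.23), with its wild-type samples far apart, and Ppm1k at the high end (0.53).

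As a measure of the mitochondria outside this route, 17 genes of the citric acid cycle and the related dehydrogenase complexes were taken alongside, of which 15 had a probe and 14 were kept. By brightest probe, none of these 14 passed the test (limma, 1 at an unadjusted p-value under 0.05), 12 were above 0 and 2 below, and their median was 0.05. Over all 14420 kept probes, 7615 were above 0 and 6805 below. Of the 23 kept probes of the list, 3 had an unadjusted limma p-value under 0.05, against 7.64% of all probes. Probes of 1 gene could disagree: the brightest and a dimmer probe gave 0.20 and -0.22 for Idh3a and 0.05 and -0.58 for Pdhb. For Idh3b they gave -0.79 and -0.34, and for Sdhb 0.05 and -0.34. For Dlst the brightest gave -0.00026 and the dimmer ones -0.36, -0.25 and -0.33. The dimmer kept probes named here were thus all below 0, and the split of 12 and 2 holds for the brightest probes. The members' median of -0.06 and the wider route's median of -0.05 stand beside this list's median of 0.05 as descriptions. The difference between the lists was not tested.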

How the data were processed

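The deposited signal table holds bead-averaged intensity on a linear scale, which the authors exported from BeadStudio (version 2.3.41, per the submitters' processing notes). Each signal has a deposited detection value, headed as a p-value; it rises with signal and was read as 1 minus the p-value. A second deposited table holds log2 values, equal to the log2 signal centred per array and on each probe's median over the 6 arrays (array medians -0.0235 to 0.0136). The export's background setting is not stated in the labels or headers. Medians of the signals were 154.5 to 174.9 per array, and the number of arrays limits the precision.

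Signals stood 0 to 21 rows away from the identifiers of their probes. Each was reassigned to the probe whose log2 values had the same differences between arrays, to within 0.002, which placed 46611 of 46632 probes, and the 21 unmatched rows were not used. Signal and detection then had a rank correlation of at least 0.99996, against at most 0.0367 as deposited, across probes below the top detection value. Probes at that top value, which tie, were left out, so their placement rests on the log2 match alone. Detection took no part in the matching.

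Signals were background corrected (normexp with inferred negative controls, offset 16), then quantile normalised and log2 transformed with limma 3.58.1 in R 4.3.3 (matching in Python 3.11.15). Groups were compared with lmFit and eBayes, two-sided, at an adjusted p of 0.05. The procedure was tested on simulated data whose shifts were larger than any member difference. That test therefore does not tell whether differences of the members' size could be detected. Probe symbols came from the platform annotation (29976 probes with 1 symbol, 10 with several), and 29921 were found in RefSeq, where 0 symbols changed. A gene with several kept probes was represented in lists by its brightest.

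Named were all members, the regulators, carriers and Dld listed with the pathway, and the 4 other pathway genes with the smallest unadjusted p. The members and all lists were chosen with earlier results of these data known. Alternatives covered background, normalisation, detection filter, probe choice, the treatment of arrays 1 and 2, a replicate block, and leaving out arrays.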

Additional observations from a re-analysis of the deposited data

How the results depend on the processing

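Under 19 alternatives, 0 members and 0 other pathway genes passed the test. Over all probes, 0 were called higher and 1 lower in the comparison as reported. With 6 separate arrays 20 were higher and 34 lower, and a random block per RNA sample gave 5 and 8. Offset 50 gave 3 and 6, omitting the background correction 2 and 4, and centring on array medians 1 and 2. The deposited log2 values gave 2 and 5, and an intensity trend 3 and 7. With probes detected on all 6 arrays, 0 were called lower. Leaving out transgenic array 3 gave 1 higher and 7 lower, and leaving out transgenic arrays 1 and 2 gave 1 and 17. The other omissions gave 0 and 1. The members' median was -0.11 with median centring. It was -0.13 to 0.057 when single arrays were left out, 0.033 without wild-type arrays 1 and 2 and -0.18 without transgenic arrays 1 and 2, and the median of all probes was -0.06 with median centring.

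Of 171 member differences recomputed, 6 changed sign: Hibadh -0.050 with median centring, Bcat2 0.017, Bckdha 0.055 and Ivd 0.19 without transgenic array 3, and Bckdha 0.0042 and Ivd 0.21 without wild-type arrays 1 and 2. Of the other named genes, Slc25a44 (-0.016) and Slc7a5 (-0.16) changed sign without wild-type array 3, and Dld (-0.054), Klf15 (0.26) and Ppargc1a (-0.11) without wild-type arrays 1 and 2. The cause was not tested. Over single arrays left out, Bcat2 ran from -0.29 to 0.017, Bckdha from -0.13 to 0.055, Ivd from -0.45 to 0.19, Slc25a44 from -0.016 to 0.24 and Slc7a5 from -0.16 to 0.49. Dbt stayed below 0 under all 19, from -0.82 to -0.37, with adjusted p-values of 0.184 to 1.00. Bckdk kept differences of 0.12 to 0.27, Mccc2 of 0.17 to 0.40 and Ppm1k of 0.21 to 0.65. Where an alternative leaves a group with 1 sample, that sample is assumed to vary like the other group.

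Whether the replicate numbers of the labels pair the samples could not be settled. Deviations from the group means of same-numbered arrays correlated at 0.000456, 0.0232 and 0.0616. Arrays 1 and 2 of a group were counted as 1 sample, so only the last value, of array 3, bears on it. That value was small, and was the highest among all pairs of a wild-type and a transgenic array (others -0.0623 to 0.0586). With the replicate number as a block, 0 probes were called higher and 1 lower, 0 members were called, and the adjusted p-value of Dbt was 0.512.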
